A study of Mus musculus with 12 samples.

Results

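The Polycomb group genes are described here through 10 genes that encode core and accessory subunits of the Polycomb repressive complexes: Ezh2, Eed, Suz12, Jarid2, Mtf2, Phf19, Rnf2, Ring1, Bmi1 and Phc1. They were chosen by name, with earlier results of these data known. All 10 were on the array, with 29 probe sets among the 44937 that were tested, and they are 10 of the 18163 genes that could be named. For each gene the brightest probe set stands for the gene, that is the set with the highest mean log2 value over the 12 arrays, and the other probe sets serve as a check.

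Mid-2-cell mouse embryos, collected 43 h after hCG, were profiled on 12 Affymetrix expression arrays in 4 groups of 3. Zygotes came from superovulated wild type F1 (C57BL6xDBA/2) females, 3 to 5 weeks old, mated with wild type males, and were pooled from 3 to 6 females. Oct4-MO embryos received a morpholino against the translational start of Oct4 at 0.6 mM, and Ccna2-MO embryos received a morpholino against cyclin A2, at 0.6 mM by the sample labels and 0.75 mM by the study's methods. Each injected pool had an uninjected pool from the same collection of zygotes, cultured in parallel, and each array held RNA of a pool of 20 embryos after 2 rounds of amplification from 10 embryo equivalents. The uninjected embryos received no oligonucleotide, so that in a comparison with them the effects of injection and of the targeted knockdown cannot be told apart. In the study, the cyclin A2 arrays served as the control for microinjection, for oligonucleotide in the cytoplasm and for morpholino-bound transcripts. In pooled RNA, fewer cells and less RNA per cell cannot be told apart either. The pools of a group are listed as separate experiments in the study's supplement, and the p-values measure the spread between these pools.

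Polycomb proteins keep genes silent through 2 kinds of complex. Polycomb repressive complex 2 (PRC2) methylates lysine 27 of histone H3, with Ezh2 as the enzyme and Eed and Suz12 as its obligatory partners, while Jarid2, Mtf2 and Phf19 bind the core and guide it to chromatin. Polycomb repressive complex 1 (PRC1) attaches ubiquitin to histone H2A through Rnf2 or Ring1, with Bmi1 as a partner of these enzymes and Phc1 as a subunit that links complexes to each other. The oocyte supplies many of these factors to the embryo, and methylation of lysine 27 laid down in the oocyte silences a small set of maternal alleles after fertilization.

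All values below are the deposited array intensities on a linear scale, 1 per probe set and array. Fold changes are differences of log2(intensity + 16) with their standard error (SE), a scale that shrinks the differences of dim probe sets. A gene was called when its p from limma, adjusted by the Benjamini-Hochberg method over all 44937 probe sets, was under 0.05. The arrays resembled each other in overall brightness, with medians of 22.7 to 25.5 and 39.3 to 42.7% of probe sets under 16. The targeted transcripts do not test the knockdowns, because a morpholino blocks translation. Pou5f1, which encodes Oct4, differed by 0.18 ± 0.13 (SE) in Oct4-MO embryos (adjusted p = 0.77), and Ccna2 by -0.12 ± 0.14 in Ccna2-MO embryos (adjusted p = 0.76). Markers of the sampled stage were present: of 16 listed oocyte and 2-cell markers 13 were measured, none was under 16 on all arrays, and their summed intensity lay between 19600 and 27100. Of these, Trim43a, Dppa3 and Gdf9 had the smallest p in both knockdowns. Gdf9 was higher in Oct4-MO and Ccna2-MO embryos (0.55 and 0.56, adjusted p of 0.37 and 0.20). Dppa3 was lower in both (-0.21 and -0.13, adjusted p of 0.23 and 0.31). Of the 13 markers, 9 were above 0 and 4 below in Oct4-MO embryos, and 7 above and 6 below in Ccna2-MO embryos. Trim43a fell by 1.12 in Oct4-MO embryos (adjusted p = 0.022), where 0.0936% of all genes were called. That call was lost without replicate 1 or 3 of the uninjected embryos of that experiment (adjusted p of 0.15 and 0.13), without Oct4-MO replicate 2 or 3 (0.079 and 0.062) or without replicate 1 of the uninjected embryos of the Ccna2 experiment (0.059), and also with the 6 arrays of the comparison alone (0.089), without the intensity trend (0.060) and by the methods' t-test (0.35).

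Ezh2, the methyltransferase of PRC2, was higher on each Oct4-MO array than on any array of the matching uninjected embryos, by less than the test could call. Its intensity was 1425, 1393 and 1404 after Oct4-MO injection and 1131, 1238 and 1051 without injection. It measured 678, 1225 and 1376 in the Ccna2-MO embryos and 980, 835 and 1204 in theirs. The 3 Oct4-MO arrays lay close together and above all of their controls, whereas the Ccna2-MO arrays spread below and above theirs. The difference was 0.30 ± 0.23 (SE, adjusted p = 0.78) in Oct4-MO embryos and 0.07 ± 0.23 (adjusted p = 0.93) in Ccna2-MO embryos. Leaving out replicate 2 or 3 of the Ccna2-MO embryos or replicate 2 of their uninjected embryos turned the sign of the latter (-0.04, -0.12 and -0.05), and the 95% intervals ran from -0.19 to 0.80 and from -0.42 to 0.57.

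Eed, the subunit that reads methylated lysine 27, and Suz12, which holds the core together, showed no called difference. Eed averaged 1005 ± 90.9 (SD, n = 3) after Oct4-MO injection and 1119 ± 181 without injection. In the Ccna2 experiment it averaged 1113 ± 176 after injection and 1020 ± 93.2 without. The groups overlapped in both experiments, with differences of -0.14 (adjusted p = 0.89) and 0.12 (adjusted p = 0.82).

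Suz12 was measured by 6 probe sets, the most of any member together with Mtf2. Its brightest set averaged 3993 ± 235 and 3942 ± 204 (SD, n = 3) in injected and uninjected embryos of the Oct4 experiment, and 4226 ± 344 and 3850 ± 276 in those of the Ccna2 experiment. Together with Bmi1 it had the narrowest intervals of the members: the difference was 0.02 in Oct4-MO embryos with a 95% interval of -0.17 to 0.20, and 0.13 in Ccna2-MO embryos with an interval of -0.05 to 0.32. Over all 6 probe sets the differences lay between -0.06 and 0.13 in the Oct4 knockdown and between -0.15 and 0.13 in the Ccna2 knockdown.

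**Figure D1:**
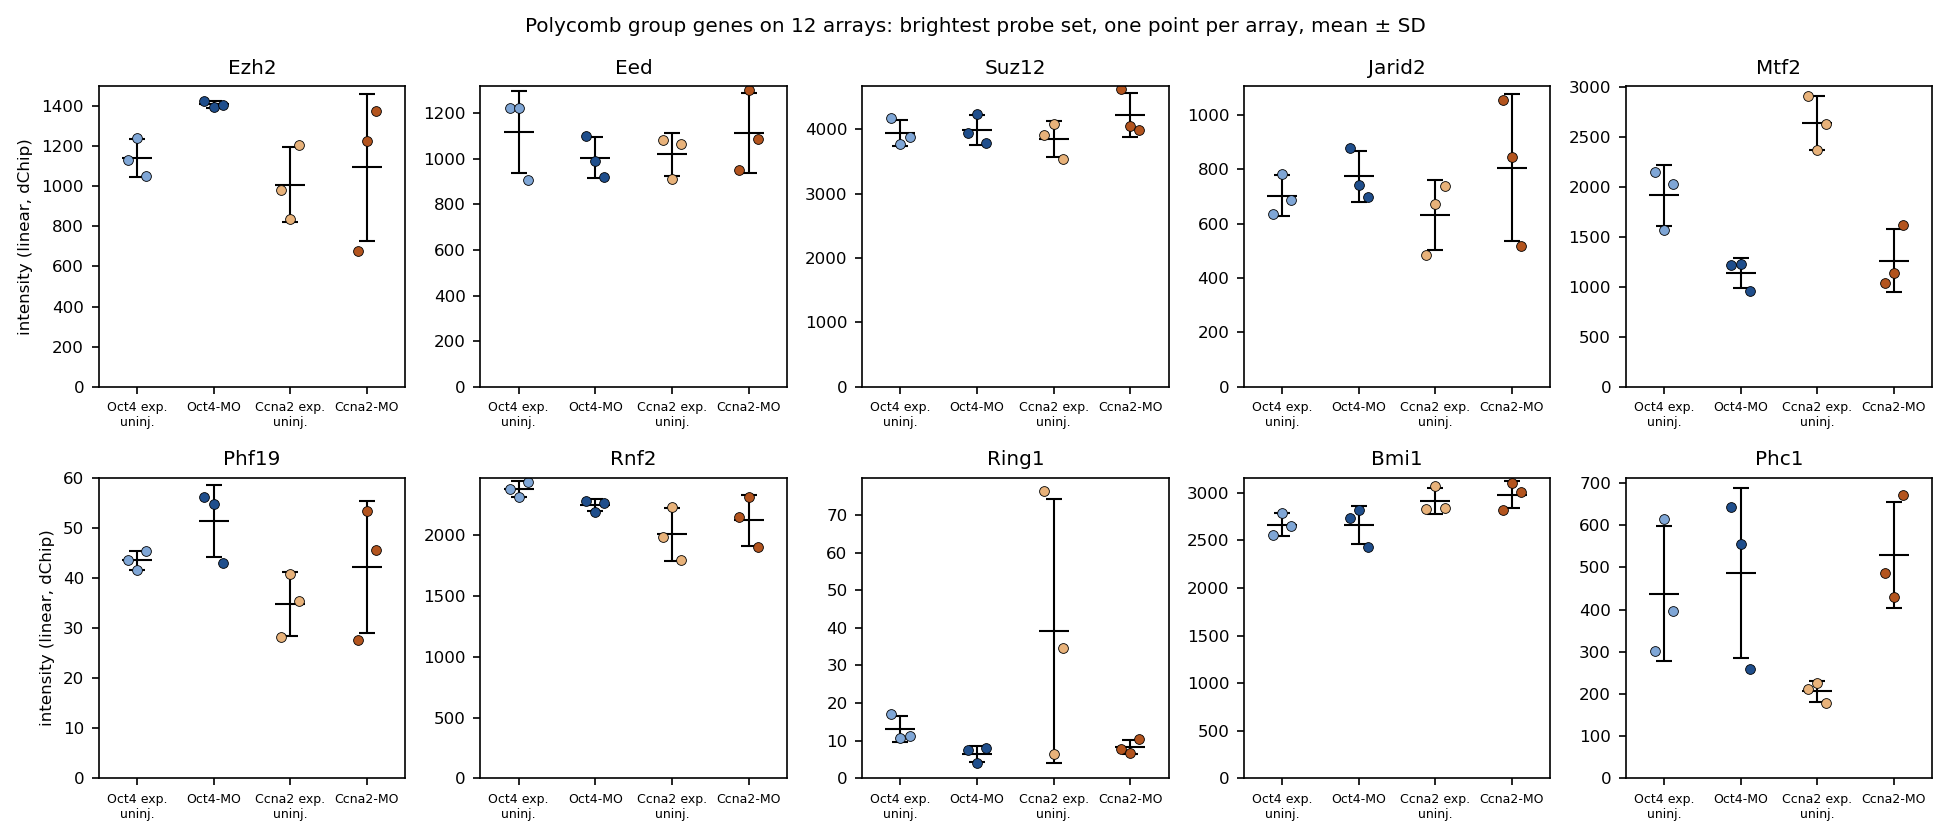
Intensity (linear scale, from 0) of the brightest probe set of each Polycomb group gene on the 12 arrays, with points for arrays, horizontal bars for group means and whiskers for the SD of 3 arrays. Mtf2 lies lower after either injection than in the matching uninjected embryos, Phc1 lies between 180 and 227 in the uninjected embryos of the Ccna2 experiment and at or above 259 elsewhere, and Suz12, Rnf2 and Bmi1 keep narrow ranges.

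Mtf2 was lower in both knockdowns and was the member that passed the test, in Ccna2-MO embryos. Mtf2, also called Pcl2, is a Polycomb-like protein that binds unmethylated CpG-rich DNA and brings PRC2 to it. In the Ccna2 experiment its intensity was 1035, 1135 and 1620 in the injected and 2914, 2369 and 2633 in the uninjected embryos. In the Oct4 experiment it was 1221, 1232 and 964 in the injected and 2148, 1573 and 2029 in the uninjected embryos. Every injected array was lower than every uninjected array of its own experiment, so each of the 6 pairs also had the lower value in the injected pool. Of all genes, 9.57% lay below without overlap in the Oct4 and 9.29% in the Ccna2 experiment, each counted alone. Ordered by level, the Oct4-MO and Ccna2-MO groups overlapped, the Ccna2-MO group overlapped the uninjected embryos of the Oct4 experiment at 1 array, and the uninjected embryos of the Ccna2 experiment stood above all other arrays.

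In Ccna2-MO embryos Mtf2 fell by 1.08 ± 0.18 on the log2 scale (SE, limma adjusted p = 0.030), to 0.475 times the level of the uninjected embryos. In Oct4-MO embryos the difference was -0.74 ± 0.18, or 0.599 times, and did not pass (adjusted p = 0.17). The changes in the 2 knockdowns differed by 0.34 ± 0.26, which did not pass (adjusted p = 0.84). The uninjected embryos of the Oct4 experiment were lower than those of the Ccna2 experiment by 0.47 (adjusted p = 0.36). With all 6 uninjected arrays as controls, the differences were -0.97 in Oct4-MO embryos, then called (adjusted p = 0.029), and -0.84 in Ccna2-MO embryos, then not called (adjusted p = 0.054). Mtf2 is also on the study's list of genes under-expressed in the Oct4 knockdown that have putative Oct4 binding sites. Those sites came from genomic sequence analysis or from chromatin precipitation in mouse embryonic stem cells. The study thus called Mtf2 in Oct4-MO embryos, where limma did not. Its expression call was made on these same arrays and is therefore no independent evidence of the direction of Mtf2.

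The call in Ccna2-MO embryos sat close to the threshold. With the embryo pool as a block the adjusted p was 0.056. It was 0.056 and 0.092 without Ccna2-MO replicate 1 or 2, 0.12, 0.055 and 0.083 without replicate 1, 2 or 3 of their uninjected embryos, and 0.051 without replicate 3 of the uninjected embryos of the Oct4 experiment. It was 0.15 with the 6 arrays of the comparison alone, 0.057 with array weights and 0.39 by the methods' t-test. The size of the difference moved less, from -1.27 to -0.84 over all alternatives. The summed intensity of 10 cumulus cell markers, from the cells that surround the zygote, was 605 to 1400 in Ccna2-MO and 727 to 1140 in their uninjected embryos. It was 612 to 861 in Oct4-MO and 638 to 696 in their uninjected embryos. Amhr2 alone read 989, 187 and 543 in Ccna2-MO and 660, 494 and 966 in their uninjected embryos. The FSH receptor gene Fshr and the activin subunit gene Inhba were under 16 on all 12 arrays. Of that list limma called 0 in either knockdown, beside 0.0936% of all genes in the Oct4 and 0.93% in the Ccna2 knockdown. In each, 4 markers were below 0 and 6 above. At an unadjusted p under 0.05 there was 1 higher marker in Oct4-MO embryos, and 1 higher and 1 lower in Ccna2-MO embryos. Cyp11a1, a steroid-producing enzyme, was higher on every injected array in both experiments (1.24, adjusted p = 0.51, and 1.65, adjusted p = 0.18). So were 9.21% of all genes in the Oct4 and 9.89% in the Ccna2 experiment, each counted alone. The transcription factor gene Foxl2 was lower on every Ccna2-MO array (-0.99, adjusted p = 0.25), as were 9.29% of all genes. Ptx3 differed by 0.30 (adjusted p = 0.49). In Oct4-MO embryos Inhba differed by 0.28 (adjusted p = 0.64) and Fshr by -0.15 (adjusted p = 0.71). The part of these markers in any result was not tested.

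The other 5 probe sets of Mtf2 gave a mixed check. Numbered by brightness, set 3 read 175, 149 and 133 in Ccna2-MO and 464, 444 and 506 in their uninjected embryos, and 306, 249 and 191 in Oct4-MO and 299, 308 and 289 in theirs. The Ccna2-MO arrays were the lowest of the 12 on this set, and the groups of the Oct4 experiment overlapped. On this set Mtf2 fell by 1.54 in Ccna2-MO embryos (adjusted p = 0.015, and 0.051 with the pool as a block) and differed by -0.27 in Oct4-MO embryos (adjusted p = 0.81). The call was kept in 18 of 23 alternatives, and the highest adjusted p among them all was 0.29. Among the fits that lost it were those without replicate 1 or 3 of the uninjected embryos (adjusted p of 0.075 and 0.060). The difference between the knockdowns on this set was 1.26 and did not pass (adjusted p = 0.54).

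Sets 2, 4 and 6 had differences of -0.58, -1.25 and -0.63 in Ccna2-MO embryos and of -0.46, -0.82 and -0.36 in Oct4-MO embryos. Set 5 gave 0.01 in both. Sets 5 and 6 were dim, under 16 on 2 and 3 arrays. None of these passed. Averaged over all of its probe sets, Mtf2 differed by -0.84 in Ccna2-MO embryos (adjusted p = 0.063). Over the 12 arrays, which share groups and pools, the log2 values of the other sets followed the brightest with a Pearson r of 0.70 to 0.77 for 4 of them and 0.15 for set 5.

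**Figure D2:**
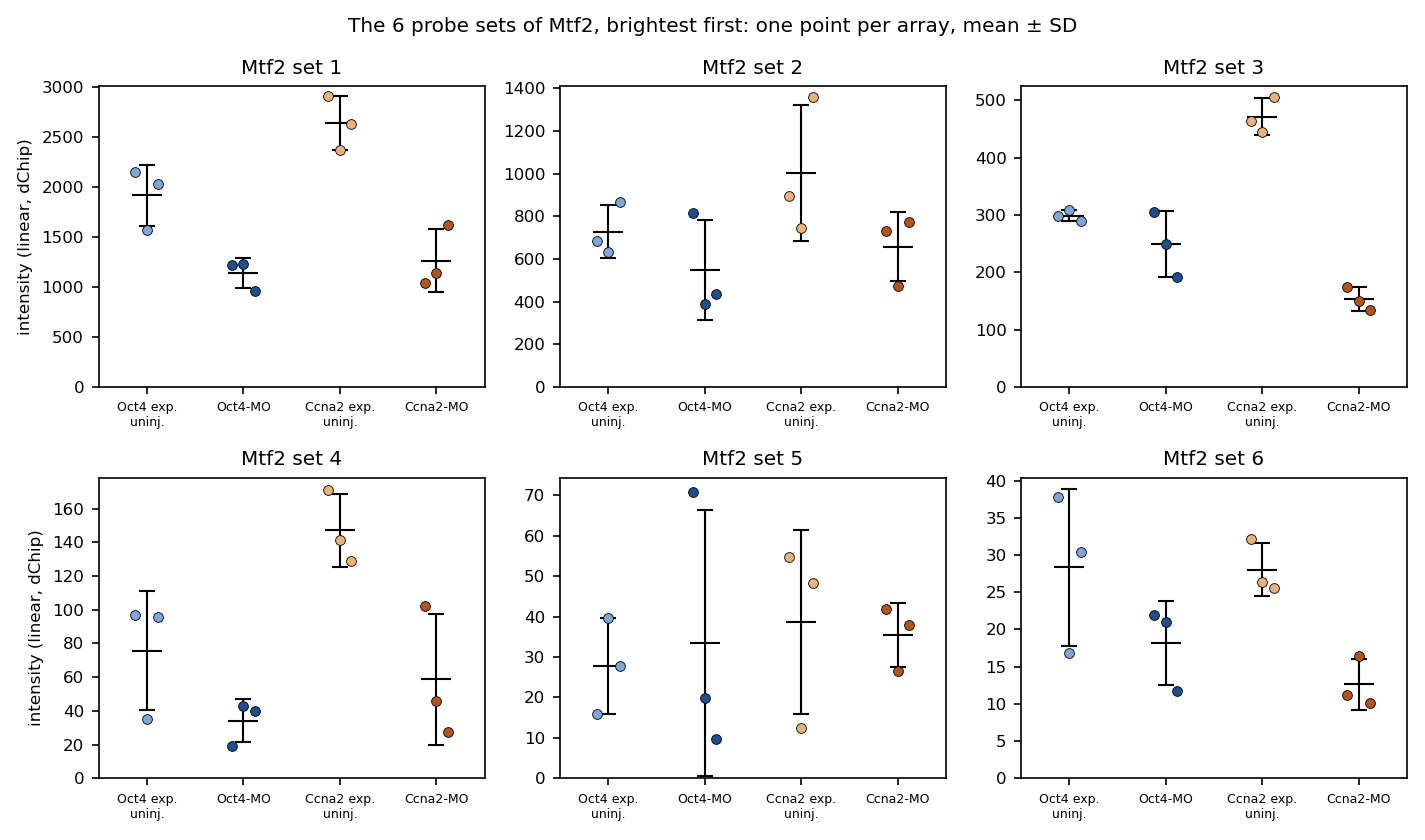
Intensity (linear scale, from 0) of the 6 Mtf2 probe sets, numbered from the brightest, on the 12 arrays, with points for arrays, bars for group means and whiskers for the SD of 3 arrays. The Ccna2-MO arrays lie below their uninjected arrays without overlap on 4 of the 6 sets, and the Oct4-MO arrays lie below theirs without overlap on set 1, the brightest. Of all genes on their brightest set, 9.29% lie below without overlap in the Ccna2 and 9.57% in the Oct4 experiment. The 6 sets measure 1 gene on the same arrays and are not independent.

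The other accessory subunits of PRC2 showed no called difference. Jarid2, which binds the core and stimulates the enzyme, read 1055, 846 and 518 in Ccna2-MO and 486, 671 and 737 in their uninjected embryos. Injected replicates 1 and 2 were above and replicate 3 was among the uninjected values. The difference was 0.31 ± 0.25 (adjusted p = 0.64), and 0.13 ± 0.25 in Oct4-MO embryos (adjusted p = 0.94), where the mean over 3 probe sets had the opposite sign (-0.12). Phf19, a paralog of Mtf2, was dim, at 27.6 to 56.1 over the 12 arrays, and differed by 0.17 (adjusted p = 0.92) in Oct4-MO embryos and by 0.18 (adjusted p = 0.82) in Ccna2-MO embryos.

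Among the PRC1 genes, the catalytic subunit Rnf2 kept a narrow range on its brightest probe set. It read 2282, 2192 and 2267 in Oct4-MO and 2381, 2311 and 2441 in their uninjected embryos, so that all injected arrays were lower, by 0.08 ± 0.11 (adjusted p = 0.91, 95% interval -0.31 to 0.15). In Ccna2-MO embryos the groups overlapped and the difference was 0.08 (adjusted p = 0.80). All 5 probe sets of Rnf2 had negative differences in Oct4-MO embryos, from -0.51 to -0.08, and none passed. In Ccna2-MO embryos the sets lay between -0.08 and 0.56, and none passed. Over the 12 arrays the log2 values of the other sets had a Pearson r of -0.26 to 0.23 with the brightest. The uninjected embryos of the Oct4 experiment were higher in Rnf2 than those of the Ccna2 experiment by 0.25 (adjusted p = 0.41), and against all 6 uninjected arrays the sign in both knockdowns turned (0.04 and -0.04).

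Ring1, the paralog of Rnf2, was near background on its single probe set. It was under 16 on 9 of the 12 arrays, at 4.01 to 7.95 in Oct4-MO, 10.8 to 17.1 in their uninjected and 6.69 to 10.4 in Ccna2-MO embryos. The uninjected embryos of the Ccna2 experiment read 76.3, 6.49 and 34.7. The difference was -0.37 in Oct4-MO embryos (adjusted p = 0.85), where every injected array was below every uninjected array, and -0.96 in Ccna2-MO embryos (adjusted p = 0.26), where the groups overlapped. Without replicate 2 of those uninjected embryos Ring1 passed (-1.50, adjusted p = 0.042).

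Bmi1, the partner that activates Rnf2, overlapped between groups in both experiments. It averaged 2660 ± 201 and 2666 ± 119 (SD, n = 3) in injected and uninjected embryos of the Oct4 experiment and 2981 ± 145 and 2912 ± 136 in those of the Ccna2 experiment. The 95% intervals of its differences ran from -0.20 to 0.19 and from -0.16 to 0.22.

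Phc1 had the largest positive difference of the 10 members, in Ccna2-MO embryos. It read 487, 431 and 671 in Ccna2-MO embryos and 212, 227 and 180 in their uninjected embryos. It read 644, 555 and 259 in Oct4-MO and 302, 614 and 396 in their uninjected embryos. All Ccna2-MO arrays were above their controls, while the groups of the Oct4 experiment overlapped fully. The difference in Ccna2-MO embryos was 1.28 ± 0.34 (SE), or 2.42 times, and did not pass (adjusted p = 0.11). It was 0.11 in Oct4-MO embryos (adjusted p = 0.97) and turned negative without Oct4-MO replicate 1 or 2 or without replicate 1 of their uninjected embryos (-0.14, -0.03 and -0.12).

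The uninjected embryos of the Ccna2 experiment were the group that stood apart in Phc1. They were lower than the uninjected embryos of the Oct4 experiment on every array, by 0.98 ± 0.34 (adjusted p = 0.30), and the other 3 groups overlapped. Against all 6 uninjected arrays, the difference in Ccna2-MO embryos was 0.79 (adjusted p = 0.35). The changes in the 2 knockdowns differed by -1.17 ± 0.49, which did not pass (adjusted p = 0.72).

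Counted together, 0 of the 10 members were called in Oct4-MO embryos by limma, and 1, Mtf2, had an unadjusted p under 0.05. Of all genes, 0.0936% were called and 10.6% had such a p. The methods' t-test, with variances from the 6 arrays alone, put 4 members at an unadjusted p under 0.05 in Oct4-MO embryos, against 11.2% of all genes, and 2 in Ccna2-MO embryos, against 11% of all genes, and called 0 after Benjamini-Hochberg adjustment. In either knockdown that test called 0 of all 44937 probe sets. It uses only the unpaired t-statistic that the methods name. The study called its genes by an unpublished ranking that also used fold change, with a false discovery rate from permutations. That ranking was not rerun here. In Ccna2-MO embryos 1 member was called, lower, against 0.93% of all genes called and 0.468% called lower. Unadjusted, Mtf2 and Ring1 were lower and Phc1 higher at p under 0.05, against 16.7% of all genes. Over the 29 probe sets, 0 were called in Oct4-MO embryos, against 0.0734% of all probe sets, and 2, both of Mtf2, in Ccna2-MO embryos, against 0.748%.

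The groups did not overlap for 4 members in Oct4-MO embryos, with Ezh2 above and Mtf2, Rnf2 and Ring1 below, where 9.21% of all genes lay above and 9.57% below. In Ccna2-MO embryos Phc1 lay above and Mtf2 below, where 9.89% and 9.29% of all genes did. The median difference of the 10 members was 0.01 in Oct4-MO embryos, as over all genes (0.01), and 0.10 in Ccna2-MO embryos beside 0.03 over all genes. The 95% interval lay within 1 log2 unit of 0 for 8 members in the Oct4 knockdown and 7 in the Ccna2 knockdown. For the difference between the knockdown changes limma called 0 members and 0% of all genes, with 1 member, Phc1, and 7.11% of all genes under 0.05 unadjusted. Between the uninjected groups it called 0 members and 0.116% of all genes, with Mtf2, Rnf2 and Phc1 and 12% of all genes under 0.05 unadjusted.

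**Figure D3:**
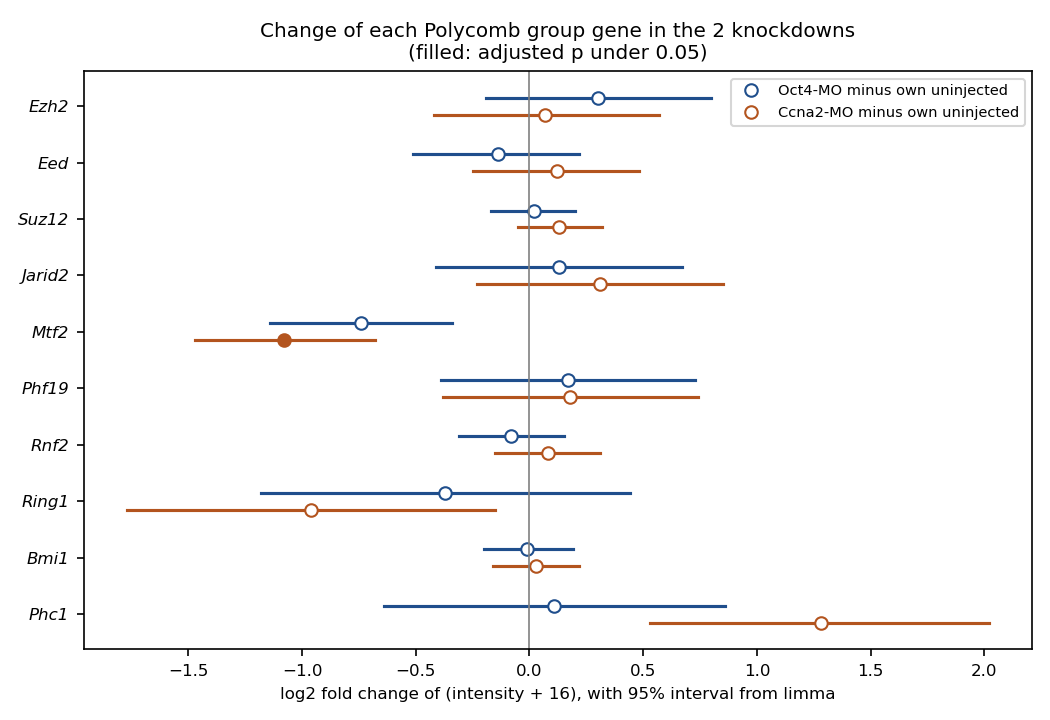
Difference of log2(intensity + 16) between injected and matching uninjected embryos for each Polycomb group gene, with 95% intervals from limma, in blue for Oct4-MO and orange for Ccna2-MO embryos. The filled point is Mtf2 in Ccna2-MO embryos (-1.08), the member that passed the adjusted threshold, and the intervals of Suz12 and Bmi1 are the narrowest around 0.

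The promoters of the members were read from RefSeq windows on GRCm38.p6, 250 bases before to 50 after each annotated start, in 12 windows for the 10 genes. They were rich in CpG, with a median of 27 CpG in a window and a range from 2 to 41, beside a median of 7 over all 32851 windows. The octamer ATGCAAAT that Oct4 recognizes was in none of the 12 windows on either strand, and in 1.74% of all windows. The words TTTCCCGC and TTTGGCGC, bound by the E2F factors of the cell cycle, were in 3 of the 12 and in 1.56% of all windows. Of more common words, CCAAT was in 6 and the GC box GGGCGG in 8 of the 12 windows, against 37.4% and 35.7% of all windows. None of the shares over all windows was matched for the CpG content of the member windows, so they do not measure enrichment. A match describes the letters of a window and does not show that a factor binds there. Sites outside the windows were not read.

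The 3 windows with an E2F word belong to Ezh2 and Suz12, of the PRC2 core, and to Phf19. They are shown with the word in capitals, each as 30 bases from 5′ to 3′ on the strand of the gene, at chr6:47595009-47595038 (minus strand, Ezh2, where the stretch begins before the annotated start and the word after it), chr11:79992876-79992905 (plus strand, Suz12) and chr2:34914166-34914195 (minus strand, Phf19, where the word is read on the opposite strand).
Ezh2: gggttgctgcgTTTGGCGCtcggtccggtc
Suz12: cgacccctcatTTTCCCGCgaattcagttc
Phf19: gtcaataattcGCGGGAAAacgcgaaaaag
None of these 3 genes was called in either knockdown.

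Mtf2, the called member, has 2 annotated starts that differ in base composition, and the 30 bases before each are shown for that reason. They lie at chr5:108065644-108065673 and chr5:108078135-108078164, both on the plus strand. Octamer and E2F words alone were put in capitals, and the stretches hold neither. The stretch before start 1 holds ccgccc, the GC box GGGCGG read on the opposite strand.
Mtf2 start 1: cccgcccctctgcggctctggagagctgcc
Mtf2 start 2: agcctacctagcatgctacaaagatcatgt
The window of the first start holds 30 CpG and that of the second 2. The arrays do not tell which start a transcript came from.

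Further Polycomb genes were counted as a list of 40, of which 37 were measured. None was called by limma in either knockdown, beside 0.0936% of all genes in the Oct4 and 0.93% in the Ccna2 knockdown. In Oct4-MO embryos 3 were higher and 3 lower at an unadjusted p under 0.05, beside 10.6% of all genes in either direction. In Ccna2-MO embryos 6 were higher and 5 lower, beside 16.7% of all genes. The median differences were 0.01 and -0.07. Kdm2b, which recruits a PRC1 variant to CpG islands, had the smallest p in Oct4-MO embryos (0.79, adjusted p = 0.22), followed by the DNA-binding factor Yy1 (-0.58, adjusted p = 0.23).

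Ezhip, an inhibitor of PRC2 that is expressed in germ cells, came next and was on the higher side in both experiments. It read 1575, 1805 and 1928 in Oct4-MO and 1006, 1485 and 931 in their uninjected embryos, and 1756, 2268 and 1824 in Ccna2-MO and 1148, 1148 and 924 in theirs. Every injected array was above every uninjected array of its experiment. This held for 9.21% of all genes in the Oct4 and 9.89% in the Ccna2 experiment, each counted alone. The differences of 0.65 ± 0.18 (adjusted p = 0.24) and 0.85 ± 0.18 (adjusted p = 0.056) did not pass. In Ccna2-MO embryos the smallest p belonged to Asxl1, a partner of the enzyme that removes ubiquitin from H2A (0.78, adjusted p = 0.056), and the methyl-lysine reader L3mbtl3 followed Ezhip (1.22, adjusted p = 0.078).

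Genes that oppose Polycomb, the lysine 27 demethylases and the Trithorax group, were listed as 21 and measured as 20. Dpy30, a core subunit of the complexes that methylate lysine 4 of histone H3, was called in Ccna2-MO embryos, beside 0.93% of all genes. It read 1376, 1652 and 1383 in Ccna2-MO and 707, 935 and 813 in their uninjected embryos, and 1024, 1173 and 1159 in Oct4-MO and 909, 1115 and 1066 in theirs. The Ccna2-MO arrays were the highest of the 12, and the groups of the Oct4 experiment overlapped.

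Dpy30 rose by 0.84 ± 0.15 in Ccna2-MO embryos (SE, adjusted p = 0.035, and 0.049 with the pool as a block) and differed by 0.12 in Oct4-MO embryos (adjusted p = 0.90), and the difference between the knockdowns did not pass (-0.72, adjusted p = 0.64). The call was lost without Ccna2-MO replicate 2 (adjusted p = 0.11), without replicate 1 or 3 of their uninjected embryos (0.13 and 0.096), without Oct4-MO replicate 2 or 3 (0.051 and 0.053), and without replicate 1, 2 or 3 of the uninjected embryos of the Oct4 experiment (0.054, 0.051 and 0.061). It was also lost with all 6 uninjected arrays as controls (0.67, adjusted p = 0.059), with the 6 arrays of the comparison alone (adjusted p = 0.19), with array weights (0.062) and by the methods' t-test (0.36). The other 19 of the list were not called. Of these Cxxc1, which targets the same methyltransferases to CpG islands, differed by 1.26 in Ccna2-MO embryos (adjusted p = 0.064) and Setd1b, such a methyltransferase, by 0.75 (adjusted p = 0.34). In Oct4-MO embryos the smallest p belonged to Wdr82 (0.58, adjusted p = 0.32), Kmt2c (-0.30, adjusted p = 0.35) and Hcfc1 (-0.54, adjusted p = 0.56). The list had a median difference of -0.05 in the Oct4 knockdown and 0.18 in the Ccna2 knockdown.

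Genes that lie downstream of Polycomb silencing gave 0 calls by limma in either knockdown. Of all genes, 0.0936% were called in the Oct4 and 0.93% in the Ccna2 knockdown. Of 6 genes imprinted through maternal methylation of lysine 27, 0 in the Oct4 knockdown had an unadjusted p under 0.05, beside 10.6% of all genes. In the Ccna2 knockdown 1 did, the amino acid transporter Slc38a4, beside 16.7% of all genes. Slc38a4 was under 16 on 10 arrays. Xist, the RNA that silences an X chromosome, differed by 0.84 in Oct4-MO (adjusted p = 0.73) and -1.23 in Ccna2-MO embryos (adjusted p = 0.36), and Sfmbt2, itself a Polycomb gene, by 0.21 and -0.75 (adjusted p of 0.96 and 0.54). Gab1, an adaptor of receptor signalling, differed by 0.36 in Oct4-MO embryos (adjusted p = 0.83).

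Of 20 developmental regulators that carry Polycomb marks in embryonic stem cells, 18 were measured and 7 were in the brighter part of the array. In Oct4-MO embryos 1 was higher and 1 lower at an unadjusted p under 0.05, beside 10.6% of all genes in either direction. In Ccna2-MO embryos 0 were higher and 1 lower, beside 16.7% of all genes. Gata4, a transcription factor of endoderm and heart, read 243, 315 and 216 in Oct4-MO and 548, 372 and 461 in their uninjected embryos, and 488, 220 and 315 in Ccna2-MO and 661, 563 and 830 in theirs. It was lower on every injected array of both experiments, by 0.80 (adjusted p = 0.39) and 1.02 (adjusted p = 0.12), and did not pass. So were 9.57% of all genes in the Oct4 and 9.29% in the Ccna2 experiment, each counted alone. Neurog2, a factor of neuronal differentiation, differed by 1.44 in Oct4-MO embryos (adjusted p = 0.43), Gata6 by 0.35 (adjusted p = 0.76), and in Ccna2-MO embryos Lhx2 by 1.15 and Foxa2 by 0.37 (adjusted p of 0.44 and 0.41).

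**Figure D4:**
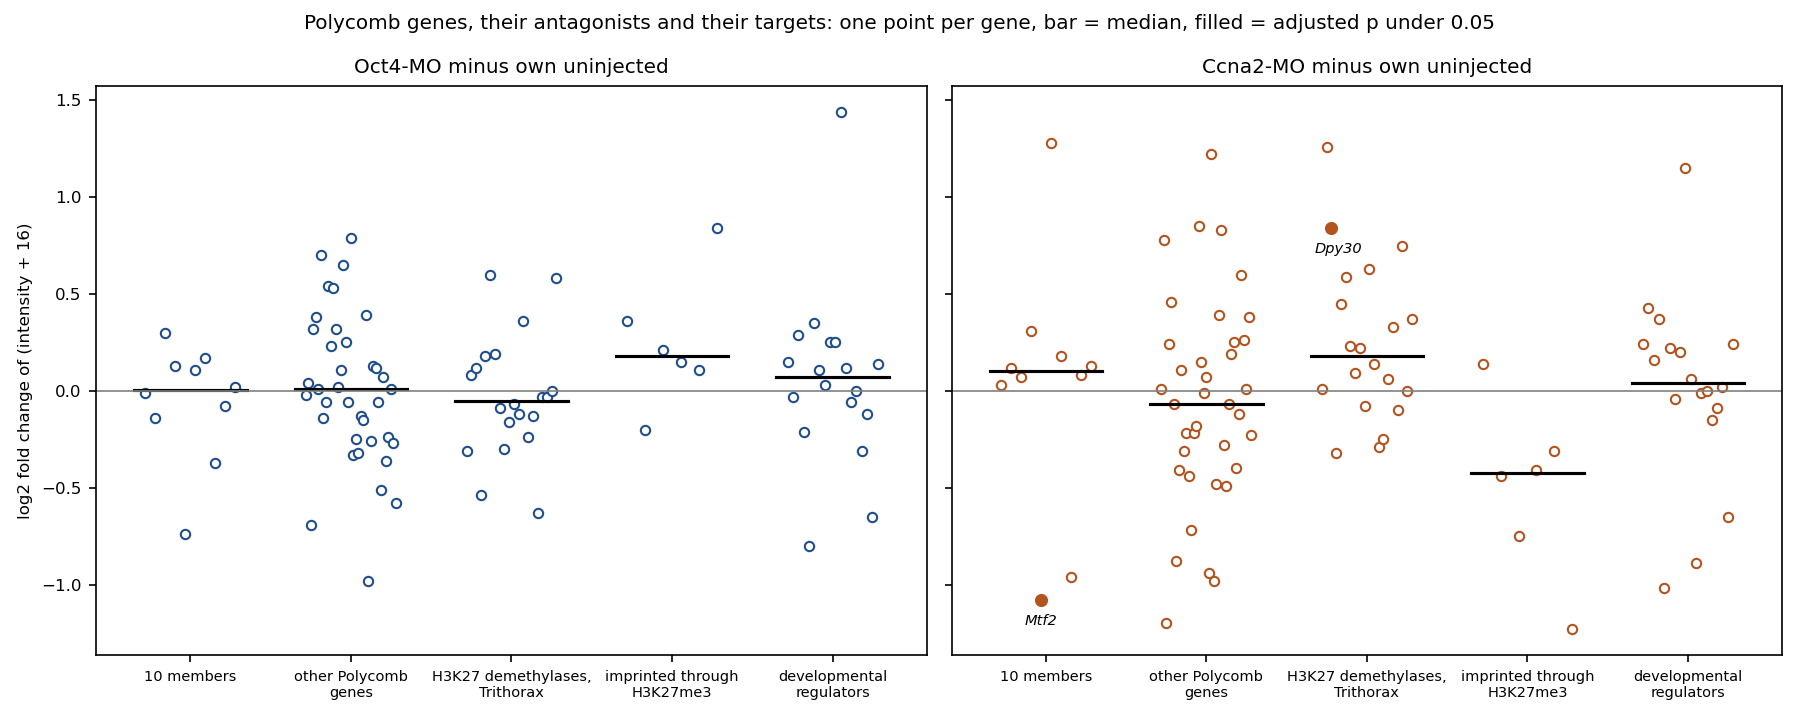
Difference of log2(intensity + 16) in Oct4-MO (left) and Ccna2-MO embryos (right) for the 10 members, 37 other Polycomb genes, 20 demethylase and Trithorax genes, 6 imprinted genes and 18 developmental regulators, with a point for each gene and a bar at the median of each list. The filled points are Mtf2 and Dpy30 in Ccna2-MO embryos, the 2 genes that passed the adjusted threshold, and no gene passed in Oct4-MO embryos.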

How the data were processed

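The deposited values are intensities on a linear scale, 1 per probe set, which the authors had normalized in dChip. Its version and options were not given in the sources used here. Of 45001 probe sets, 64 array controls were left out. Names came from the platform annotation: 34849 probe sets had 1 symbol, 928 had several and 9160 none, and only the first were named. Intensities were analysed as log2(value + 16) in R 4.3.3 with limma 3.58.1, in a model of 4 group means over all 12 arrays with a variance prior that follows intensity, and the contrasts were each injected group minus the uninjected group of its experiment. The steps were tested on simulated data. The brighter part of the array means the 22469 probe sets with the highest mean log2 values. The number of arrays limits the precision.

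The members and gene lists were chosen with earlier results of these data known. The text names all 10 members, the targeted genes, every called gene of each list and for each list the 3 smallest p of each knockdown comparison. Bcor was named after its values were seen.

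Samples were grouped and paired by their labels, which state that an uninjected pool shares its collection of embryos with the injected pool of the same number. After subtraction of the group means, paired arrays correlated with r of 0.083, 0.0308 and 0.00911 in the Oct4 experiment and -0.0128, 0.0841 and 0.114 in the Ccna2 experiment. Alternatives were a block for the pair, controls from all 6 uninjected arrays, a fit to the 6 arrays of the comparison, a prior with no trend, 1 or 64 in place of 16, the brighter part alone, quantile normalization, centring on the median, array weights, the t-test named in the methods, the average of the probe sets of a gene, and each array left out. For Dpy30, Trim43a and Mtf2 set 3 they were added after the data were seen.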

Additional observations from a re-analysis of the deposited data

How the results depend on the processing

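Over 24 alternatives, limma or the methods' t-test called 0 or 1 members in each knockdown. In Oct4-MO embryos the count was 0 except with all 6 uninjected arrays as controls (1, Mtf2), and 0 in every fit that left out an array. In Ccna2-MO embryos the count of 1 became 0 with the pair as a block, all 6 uninjected arrays, only the 6 arrays of the comparison, array weights, the methods' t-test or averaging the probe sets of a gene, and was 0 to 1 when an array was left out; without replicate 2 of the uninjected embryos the called member was Ring1 and not Mtf2. The block changed no other call of a member. Among all probe sets, the 33 calls in Oct4-MO embryos became 4 with the pair as a block, 452 with all 6 uninjected arrays, 0 with the 6 arrays of the comparison, 16 without the trend, 18 with 64 added, 92 in the brighter part, 257 with array weights, 0 by the methods' t-test, and 0 (without replicate 1 or 3 of their uninjected embryos) to 87 (without Ccna2-MO replicate 2) with an array left out. The 336 calls in Ccna2-MO embryos became 124 with the block, 3 with the 6 arrays, 711 in the brighter part, 87 with array weights, 0 by the methods' t-test, and 17 (without replicate 1 of their uninjected embryos) to 652 (without Ccna2-MO replicate 3) with an array left out.

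Some alternatives move only the p of a difference and not its size, so a sign kept there was fixed in advance. These are the block, the fit to the 6 arrays of the comparison, the prior with no trend, the brighter part and the t-test. Leaving out an array of the other experiment is also of this kind. Of 478 recomputed differences of single members, these alternatives included, 443 kept their sign and their side of the threshold and 21 changed sign, all of uncalled members. In Oct4-MO embryos these were Suz12 (-0.01 with the mean of its probe sets, -0.03 to 0.06 with an array left out), Jarid2 (-0.12 with the mean of its probe sets), Rnf2 (0.04 with all 6 uninjected arrays), Bmi1 (0.05 after quantile normalization and after median centring, 0.00 with array weights, 0.02 with the mean of its probe sets, -0.05 to 0.06 with an array left out) and Phc1 (-0.14 to 0.50 with an array left out). In Ccna2-MO embryos they were Ezh2 (-0.02 with all 6 uninjected arrays, -0.12 to 0.38 with an array left out), Eed (0.00 to 0.22 with an array left out), Suz12 (-0.04 with the mean of its probe sets) and Rnf2 (-0.04 with all 6 uninjected arrays). Ring1 gave no value in the brighter part of the array. The causes were not tested. Signal over background limits Ring1 and Phf19, and 3 arrays a group limit all members.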

Other observations

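The genes whose log2 values followed a member most closely over the 12 arrays, among 11417 genes in the brighter part of the array, were listed for Ezh2, Mtf2 and Rnf2 as a description, since the arrays share groups, pools and amplification. For Mtf2 they were 4930515G01Rik (Pearson r = 0.972), Ebna1bp2 (0.959) and Nipa2 (0.956). For Ezh2 they were F10 (0.899), Nckap5 (0.897) and 9530057J20Rik (0.883), and for Rnf2 Gle1 (0.886), Car14 (0.878) and Nr5a1 (0.871). Among the members themselves, the highest r were 0.72 for Ezh2 with Phf19 and 0.72 for Mtf2 with Ring1, both of which hold a dim gene, and the lowest were -0.63 for Jarid2 with Mtf2 and for Phf19 with Ring1.

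Bcor, a subunit of a PRC1 variant, lay on opposite sides in the 2 experiments without passing in either. It read 229, 301 and 244 in Oct4-MO and 192, 123 and 147 in their uninjected embryos, and 80.3, 38.3 and 87.4 in Ccna2-MO and 145, 129 and 127 in theirs. The groups did not overlap in either experiment. Of all genes, 9.21% lay above without overlap in the Oct4 experiment and 9.29% below in the Ccna2 experiment. The differences were 0.70 (adjusted p = 0.49) and -0.88 (adjusted p = 0.19), and the difference between them was 1.58 (adjusted p = 0.57).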
